A study of Solanum pimpinellifolium with 60 samples.

Results

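The type-A cytokinin response regulator (TRR) genes of tomato were followed through early flower development in 5 members: TRR3/4 (Solyc05g006420), TRR5 (Solyc03g113720), TRR6 (Solyc06g048930), TRR7 (Solyc06g048600) and TRR8/9a (Solyc02g071220). They were chosen by identifier and are 5 of the 34725 genes in the count table. TRR5 was highest in the sympodial meristem and fell in steps to the oldest buds, TRR6 peaked in the floral and inflorescence meristems and dropped 6.38-fold by the youngest buds, and TRR3/4 and TRR8/9a fell between the floral and inflorescence meristems and the youngest buds. TRR7 fell from 2 to 4 and from 4 to 6 dpi. Between genotypes 1 gene passed in the main test: TRR5 was 1.19-fold lower in the line with both the lc and the fas allele over the 5 stages. In the same comparison 1.65% of all genes passed, 0.815% as lower. The TRR5 call was lost when any 1 of 4 collections of libraries was left out. It was also lost when collections were fitted as blocks (limma-voom adjusted p = 0.244) or their counts were summed.

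Cytokinin is the plant hormone that promotes cell division and keeps shoot meristems active. It binds histidine kinase receptors in the membrane, which pass phosphate groups through histidine phosphotransfer proteins to type-B response regulators, transcription factors that switch on cytokinin target genes. Type-A response regulators are early targets of this pathway and dampen it, so that they form a negative feedback loop. In Arabidopsis, WUSCHEL, the transcription factor that maintains stem cells in the shoot meristem, directly represses several type-A regulators. The study paired TRR3/4 with Arabidopsis ARR3, TRR5 with ARR6, and both TRR6 and TRR7 with ARR17; no pair was found here for TRR8/9a, which is taken as a type-A gene by its name alone.

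Transcript levels were measured by 3′ Tag RNA-seq, which reads only the 3′ end of each mRNA, in Solanum pimpinellifolium LA1589 (wild type) and in 3 near-isogenic lines (NILs) in that background. The lc NIL carries the allele of cultivated tomato (S. lycopersicum) near SlWUS, the tomato WUSCHEL gene, on chromosome 2, the fas NIL carries the inversion at SlCLV3, a signal peptide gene of the stem cells, on chromosome 11, and the lc/fas NIL carries both. The alleles were brought in by repeated backcrossing, and all 4 genotypes came from 1 backcross family, each as 1 line, so that other introgressed segments cannot be told apart from the alleles. Each genotype was sampled at 5 stages: the sympodial shoot apical meristem (SYM), the floral and inflorescence meristems together (F&IM), and buds collected 2, 4 or 6 days post initiation (dpi). There were 3 replicates of each group and 60 libraries in all. Each library is a pool of tissue dissected from many inflorescences, and p-values measure the spread between such pools.

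Totals ran from 441291 counts, in fas at 6 dpi, replicate 3, to 9172182, in lc/fas at 6 dpi, replicate 1, and 3 counts of the smallest total correspond to 6.80 RPM. Correlations between replicates of a group were 0.910 to 0.989, with a median of 0.980. Levels are given in RPM, a gene's counts scaled to 1e+06 counts per library, and every test used the counts in edgeR with p-values adjusted over 18901 genes and a threshold of 0.1. Median counts of the 5 genes per library were 125 for TRR3/4, 180 for TRR5, 27.5 for TRR6, 33 for TRR7 and 78.5 for TRR8/9a, so that TRR6 and TRR7 were measured least precisely. The labels of the F&IM and 6 dpi were checked with known genes in wild type, and those of the SYM, 2 dpi and 4 dpi were not checked in this way. In wild type, STM, a meristem homeobox gene, was at 465 ± 50.8 RPM (SD, n = 3) in the F&IM and a mean of 77.0 at 6 dpi, and TAG1, the AGAMOUS homolog of the inner floral organs, was at 2.10 ± 0.0776 RPM in the F&IM and 140.2 ± 34.2 at 6 dpi.

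**Figure D1:**
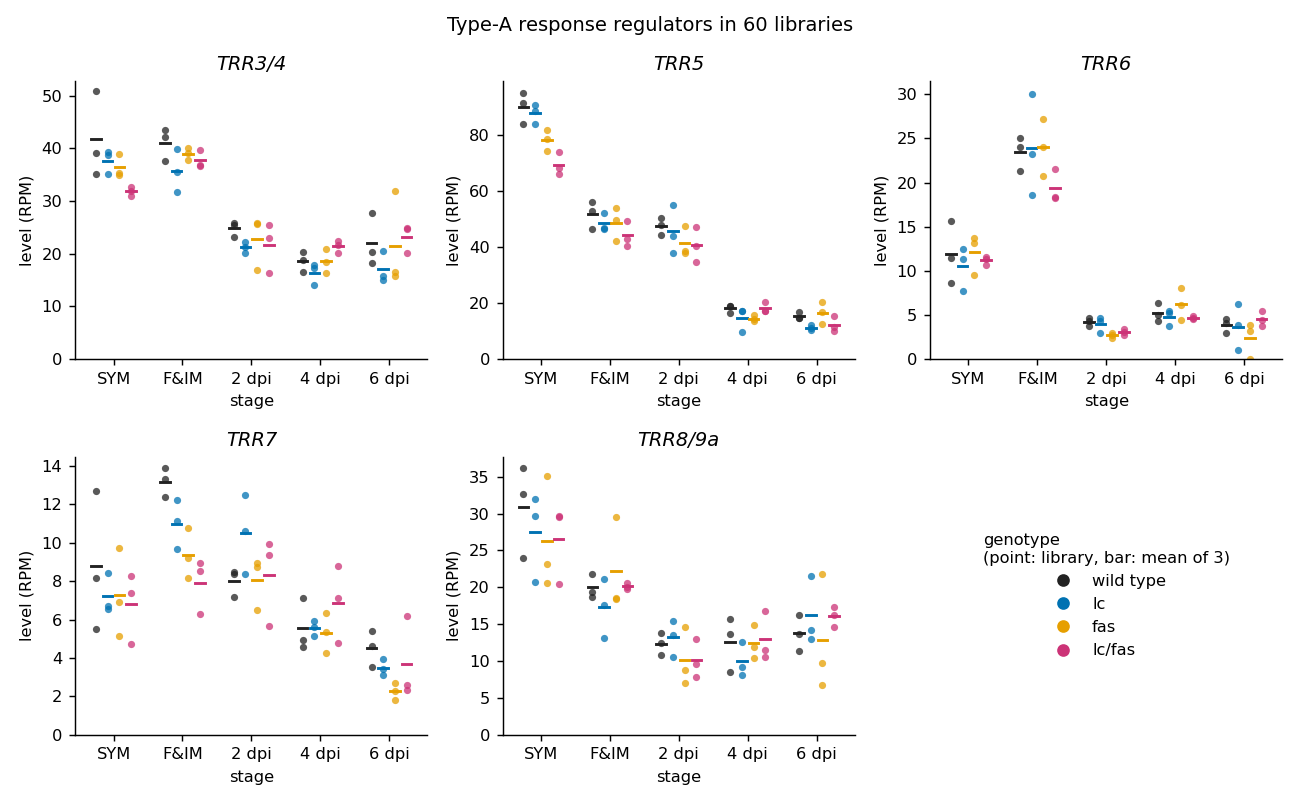
Level in RPM (vertical axis, from 0) of each of the 5 genes in every library, by stage (horizontal axis) and genotype (colour); points are libraries and bars are means of 3. TRR5 falls from 66.1 to 94.9 RPM in the SYM to 10.1 to 20.4 RPM at 6 dpi, and TRR6 peaks in the F&IM at 18.3 to 30.0 RPM.

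TRR5 declined through development, in 2 large steps. In the wild-type SYM its 3 libraries were at 83.7, 94.9 and 91.2 RPM, in the F&IM at 52.6, 56.0 and 46.4, and at 2 dpi at 50.1, 44.4 and 47.8. It was at 18.9, 16.6 and 19.1 RPM at 4 dpi and at 14.8, 16.9 and 14.5 RPM at 6 dpi. The SYM libraries lay above all F&IM libraries and the 2 dpi libraries above all 4 dpi libraries, while the F&IM overlapped 2 dpi and 4 dpi overlapped 6 dpi. For such separations between stages within 1 genotype, here and below, the share of all genes was not computed. Over the 4 genotypes, TRR5 fell by 0.77 on the log2 scale from the SYM to the F&IM (SE 0.07, 1.70-fold, edgeR adjusted p = 1.89e-14) and by 1.41 from 2 to 4 dpi (SE 0.08, 2.65-fold, adjusted p = 3.59e-24). In both steps the 12 libraries of the later stage were all below the 12 of the earlier one, which held for 1.90% and 2.72% of all genes in the respective steps. A smaller drop followed from 4 to 6 dpi (log2 fold change -0.27, SE 0.08, adjusted p = 0.0133). From the F&IM to 2 dpi the change was -0.10 (95% interval -0.24 to 0.03) and did not pass the test.

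TRR6 moved the opposite way at first. Its wild-type libraries rose from 8.64, 11.5 and 15.6 RPM in the SYM to 24.0, 21.4 and 25.0 in the F&IM, and were at 4.29, 3.73 and 4.69 at 2 dpi. They were at 6.37, 4.36 and 5.04 RPM at 4 dpi and at 3.00, 4.12 and 4.55 RPM at 6 dpi. The F&IM was thus the peak, and no library of another stage reached it. Over the 4 genotypes TRR6 rose 1.95-fold from the SYM to the F&IM (log2 0.97, SE 0.12, adjusted p = 3.31e-10), with no overlap between the 12 libraries of each stage (1.95% of genes rose so), and then fell 6.38-fold to 2 dpi (log2 -2.67, SE 0.13, adjusted p = 3.85e-26). The 12 libraries at 2 dpi were again all below the 12 of the F&IM, as for 1.98% of genes. A rise of 0.60 on the log2 scale to 4 dpi followed (SE 0.15, adjusted p = 0.00121), seen in 12 of 12 collections, as for 9.74% of genes. A collection stands for the 5 libraries of 1 genotype and replicate number. From 4 to 6 dpi the change was -0.31 (95% interval -0.60 to -0.01, adjusted p = 0.153). TRR6 had no count in fas at 6 dpi, replicate 3, where the limit of 3 counts, 6.80 RPM, is above the level of TRR6 in every other 6 dpi library; its presence there was not detectable at this depth.

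TRR7, the other gene paired with ARR17, was also highest in the F&IM of wild type, but its profile was shallower, and in lc/fas its mean was highest at 2 dpi. Its wild-type libraries were at 5.52, 12.7 and 8.15 RPM in the SYM, at 13.3, 13.9 and 12.4 in the F&IM, at 8.36, 7.18 and 8.48 at 2 dpi, at 4.95, 4.56 and 7.10 at 4 dpi, and at 4.62, 3.50 and 5.41 at 6 dpi. The F&IM libraries lay above all 2 dpi libraries and these above all 4 dpi libraries, while the SYM overlapped the F&IM, and 4 dpi overlapped 6 dpi. The gap between 2 and 4 dpi was narrow (7.18 against 7.10 RPM), and that step did not pass in wild type (edgeR adjusted p = 0.324). Over the 4 genotypes it rose by 0.43 on the log2 scale from the SYM to the F&IM (SE 0.14, adjusted p = 0.0178), then fell by 0.58 from 2 to 4 dpi (SE 0.15, adjusted p = 0.00113) and by 0.66 from 4 to 6 dpi (SE 0.17, adjusted p = 0.00236). From the F&IM to 2 dpi the change was -0.22 over the 4 genotypes (SE 0.14, adjusted p = 0.223), and limma-voom with collections as blocks gave -0.25 (adjusted p = 0.0992). In wild type alone this step was the largest of the falls of TRR7 (-0.68, SE 0.27, adjusted p = 0.151). It did not pass in the main edgeR model, but did in edgeR with the replicate block (adjusted p = 0.0850) or with total counts (0.0949). It also passed in limma-voom with collections as blocks (0.0341). TRR6 and TRR7 are on the same chromosome. How reads that match more than 1 gene were counted is not given in the sources used here, and whether this pair shares reads was not tested.

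TRR8/9a followed another course, highest in the SYM, lowest at 2 and 4 dpi and slightly higher again at 6 dpi. In wild type its libraries were at 36.2, 32.6 and 24.0 RPM in the SYM, at 19.4, 21.9 and 18.8 in the F&IM, and at 10.8, 13.8 and 12.5 at 2 dpi. They were at 8.49, 13.7 and 15.7 RPM at 4 dpi and at 13.6, 16.3 and 11.4 RPM at 6 dpi. The SYM, the F&IM and the later stages did not overlap, while 2, 4 and 6 dpi overlapped each other. It fell by 0.49 on the log2 scale from the SYM to the F&IM (SE 0.12, adjusted p = 0.000783) and by 0.76 to 2 dpi (SE 0.13, adjusted p = 1.58e-06), and rose by 0.35 from 4 to 6 dpi (SE 0.13, adjusted p = 0.0491). That last call was lost without lc replicate 2 (adjusted p = 0.179), fas replicate 2 (0.106) or lc/fas replicate 1 (0.119), and with no filter on low counts (0.119).

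In wild type, every meristem library of TRR3/4 was above every bud library, and the share of all genes with such a separation was not computed. The wild-type libraries were at 35.1, 39.1 and 50.9 RPM in the SYM, at 37.5, 43.4 and 42.1 in the F&IM, and at 25.8, 25.4 and 23.2 at 2 dpi. They were at 16.4, 18.9 and 20.4 RPM at 4 dpi and at 27.7, 18.1 and 20.3 RPM at 6 dpi, and the SYM overlapped the F&IM, and 6 dpi overlapped both 2 and 4 dpi, which did not overlap each other. Over the 4 genotypes, the 12 F&IM libraries (31.7 to 43.4 RPM, median 38.4) were all above the 12 libraries of 2 dpi (16.4 to 25.9 RPM, median 23.1), as for 1.98% of genes. The fall was 1.66-fold (log2 -0.73, SE 0.09, adjusted p = 1.34e-09). A further fall of 0.25 came from 2 to 4 dpi (SE 0.10, adjusted p = 0.0317). Between the SYM and the F&IM the difference was 0.04 (95% interval -0.14 to 0.21), although in lc/fas the F&IM libraries (36.7 to 39.7 RPM) were all above those of the SYM (31.0 to 32.6 RPM).

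**Figure D2:**
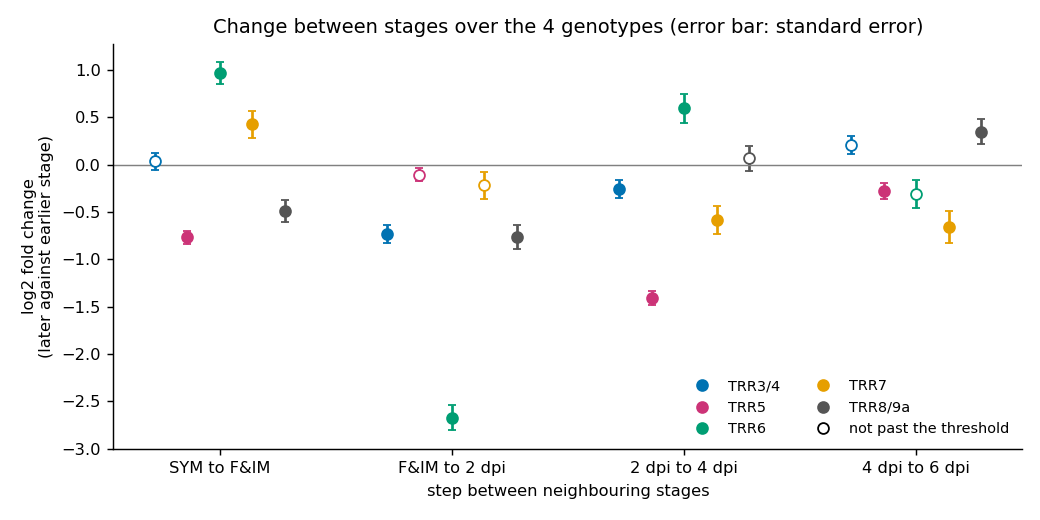
Log2 fold change between neighbouring stages over the 4 genotypes (vertical axis) for each step (horizontal axis) and gene (colour), with standard errors; open symbols did not pass the threshold. TRR6 at -2.67 from the F&IM to 2 dpi and TRR5 at -1.41 from 2 to 4 dpi are the largest changes drawn.

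The 5 genes thus did not all fall at the same step. Over the 4 genotypes, TRR3/4, TRR6 and TRR8/9a fell most from the F&IM to 2 dpi and TRR5 from 2 to 4 dpi. TRR7 changed by -0.58 from 2 to 4 dpi and by -0.66 from 4 to 6 dpi. All 5 passed the overall stage effect, as did 82.3% of genes tested, so that a stage effect as such did not set them apart. From the SYM to the F&IM, 4 of 5 genes changed, TRR6 and TRR7 upward and TRR5 and TRR8/9a downward, against 31.4% of all genes (15.9% upward and 15.5% downward). From the F&IM to 2 dpi 3 of 5 fell (39.9% of genes changed, 20.2% upward and 19.6% downward), with a median of -0.73 for the 5 genes and -0.01 for all genes. From 2 to 4 dpi 1 rose and 3 fell (43.2% of genes changed, 21.3% upward and 21.9% downward), and from 4 to 6 dpi 1 rose and 2 fell (24.8%, with 15.1% upward and 9.78% downward). In wild type alone 6 of the 20 tests passed. These were TRR5 (log2 -0.83), TRR6 (0.96) and TRR8/9a (-0.66) from the SYM to the F&IM, where 10.5% of genes were called, TRR3/4 (-0.68) and TRR6 (-2.44) from the F&IM to 2 dpi (7.52%), and TRR5 (-1.37) from 2 to 4 dpi (12.6%). From 4 to 6 dpi 0 of 5 passed in wild type in edgeR, 0 had an unadjusted p under 0.05, and 3.98% of genes passed. Some of these calls in wild type rested on single collections. The call of TRR8/9a was lost without wild type replicate 1 (adjusted p = 0.457), 2 (0.242) or 3 (0.142), that of TRR6 from the SYM to the F&IM without replicate 1 (0.114), and that of TRR3/4 without replicate 3 (0.157).

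The genes differed in how they followed the meristem markers, which did not all move together. From the SYM to the F&IM, over the 4 genotypes, SlWUS changed by 1.38 on the log2 scale, STM by 0.76 and SlCLV3 by -0.32. In that step TRR5 changed by -0.77, TRR8/9a by -0.49, TRR3/4 by 0.04, TRR7 by 0.43 and TRR6 by 0.97. From 2 to 4 dpi, the step of the larger TRR5 drop, STM changed by -1.31 on the log2 scale over the 4 genotypes, SlWUS by -2.11 and SlCLV3 by -2.21, and TAG1 by 5.33. From the F&IM to 2 dpi, where TRR6 changed by -2.67, STM changed by -0.17, SlWUS by -0.63 and SlCLV3 by -0.75. In bulk tissue, fewer cells of a type and less RNA per cell cannot be told apart, and the part of tissue composition in these changes was not tested. Over the 20 group means of log2(RPM + 1), Pearson's r with SlCLV3 was 0.951 for TRR5, 0.824 for TRR7, 0.814 for TRR3/4, 0.664 for TRR6 and 0.579 for TRR8/9a. With STM it was 0.890 for TRR7, 0.766 for TRR5, 0.595 for TRR3/4, 0.573 for TRR6 and 0.228 for TRR8/9a. With SlWUS it was 0.855 for TRR7, 0.769 for TRR5, 0.670 for TRR3/4, 0.621 for TRR6 and 0.297 for TRR8/9a. TRR5 was thus the closest to SlCLV3 and TRR7 the closest to STM and SlWUS, and r with TAG1 ran from -0.945 for TRR5 to -0.481 for TRR8/9a. Between the 5 genes, r was 0.283 (TRR7 and TRR8/9a) to 0.856 (TRR3/4 and TRR6). After the group means were removed, the 10 pairs had r of -0.392 to 0.356 over the 60 libraries. These values are descriptions, since the group means share stages and libraries.

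Genes with the most similar profiles were sought in 14472 genes that averaged 5 RPM or more. The closest to TRR5 was Solyc02g084900 (r = 0.986 over 20 group means), which went from 162.4 RPM in the SYM to 60.1 at 6 dpi. It was followed by Solyc03g114940 (r = 0.978) and Solyc08g078900 (r = 0.977). For TRR6 the closest were Solyc02g084960 (r = 0.965), Solyc11g064800 and Solyc09g091060 (both r = 0.957), each highest in the F&IM, at 26.7, 75.4 and 165.6 RPM. For TRR7 they were Solyc09g091180 (r = 0.965), Solyc11g072260 (r = 0.965) and Solyc06g075960 (r = 0.963). TRR3/4 was closest to Solyc09g090520 (r = 0.965), Solyc04g076060 (r = 0.962) and Solyc06g054510 (r = 0.957), and TRR8/9a to Solyc09g082860 (r = 0.956), Solyc12g098680 (r = 0.940) and Solyc01g106000 (r = 0.937). None of these 15 genes is a member or on the list of cytokinin genes below.

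Cytokinin genes other than the type-A regulators were taken from the homolog pairs in the study's tables, which gave 17 genes: 5 LOG enzymes and 1 isopentenyltransferase, which make cytokinin, 1 cytokinin oxidase, which degrades it, 2 phosphotransfer proteins, 5 type-B regulators and 3 cytokinin response factors. The study chose the genes of those tables on these same libraries, so that the counts are not independent evidence of a genotype difference. The overall stage effect passed for 16 of 17, and for 82.3% of all genes. From the SYM to the F&IM 6 rose and 6 fell, against 15.9% and 15.5% of all genes. From the F&IM to 2 dpi 2 rose and 9 fell (20.2% and 19.6%). From 2 to 4 dpi 5 rose and 6 fell (21.3% and 21.9%), and from 4 to 6 dpi 8 rose and 4 fell (15.1% and 9.78%). Medians in these steps were -0.07, -0.31, 0.03 and 0.19 against 0.00, -0.01, -0.02 and 0.01 for all genes.

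Of the 17 genes, 6 had their highest mean in the F&IM, where TRR6 peaked, and 7 at 6 dpi. The share of all genes with such peaks was not computed. Among the 6, Solyc01g007270 was at 17.5 RPM in the SYM and 18.0 in the F&IM. The LOG1 homolog Solyc06g075090, named after its values were seen, was at 23.0 and 24.6 RPM. Neither passed in that step (edgeR adjusted p = 0.867 and 0.871). The IPT5 homolog Solyc01g080150, for the first step of cytokinin synthesis, went from 2.04 RPM in the SYM to 12.1 in the F&IM and 3.39 at 2 dpi. It rose by 2.54 on the log2 scale (SE 0.21, adjusted p = 3.37e-16) and then fell by 1.80 (SE 0.19, adjusted p = 8.89e-12). The LOG7 homolog Solyc10g082020, which releases active cytokinin, rose by 0.47 (SE 0.10, adjusted p = 9.02e-05) and fell by 1.22 (SE 0.10, adjusted p = 3.62e-16) in the same steps. The other LOG7 homolog, Solyc01g007270, changed by -0.79, -1.15 and -1.37 in the last 3 steps. The LOG1 homolog Solyc06g075090 and the LOG3 homolog Solyc10g084150 changed by -1.26 and -0.63 from the F&IM to 2 dpi. Both LOG3 homologs were named after their values were seen. The most abundant LOG gene, the LOG3 homolog Solyc09g007830, ran against the rise to the F&IM. It fell by 1.38 from the SYM to the F&IM (SE 0.12, adjusted p = 2.22e-14) and rose by 0.86 and 1.03 in the last 2 steps to 162.5 RPM at 6 dpi. The CKX3 homolog Solyc12g008900 was highest at 6 dpi, at 4.54 RPM, after a rise of 1.64 from 4 dpi (SE 0.24, adjusted p = 1.14e-07). Among the response factors, the CRF2 homolog Solyc08g081960 rose by 0.50 from the SYM to the F&IM (SE 0.10) and the CRF4 homolog Solyc06g082590 fell by 0.37 in that step (SE 0.14) and was highest at 2 dpi.

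**Figure D3:**
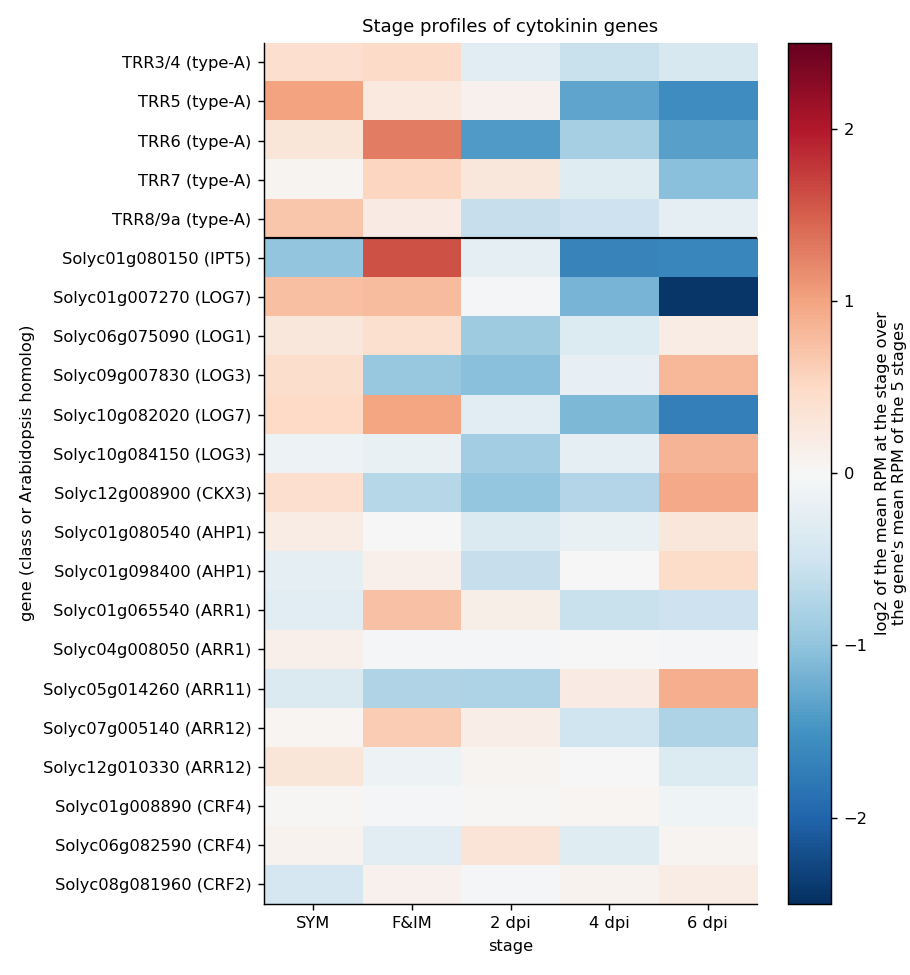
Colour gives the log2 of the mean RPM at a stage (horizontal axis, 12 libraries each) over that gene's mean RPM of the 5 stages, for the 5 type-A genes above the line and 17 further cytokinin genes below it (vertical axis). TRR6, Solyc01g080150 and Solyc10g082020 are highest in the F&IM, and Solyc12g008900 at 6 dpi.

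The NILs address whether the lc and fas alleles, alone or together, change the expression of these genes. TRR5 was the 1 gene of 5 that passed the overall genotype effect (adjusted p = 0.0762), which 3.23% of all genes passed. Over the 5 stages it was lower in lc/fas than in wild type by 0.25 on the log2 scale (SE 0.07, 95% interval -0.38 to -0.12, adjusted p = 0.0402), which 1.65% of genes passed, 0.815% as lower. Fitted with a block for the replicate number, the difference was -0.25 (SE 0.06, adjusted p = 0.00955). In fas it was -0.20 (SE 0.07, adjusted p = 0.129) and in lc -0.16 (SE 0.07, adjusted p = 0.511). Neither passed in the main edgeR model, where 2.22% and 0.323% of genes were called. For fas DESeq2 gave an adjusted p of 0.0824 and edgeR with the replicate block 0.0456, while limma-voom with collections as blocks gave 0.624 and the sums per collection a difference of -0.12 (adjusted p = 0.999). The lc by fas term, the departure of the double NIL from the sum of both effects, was 0.11 for TRR5 (95% interval -0.08 to 0.29, adjusted p = 0.963). The unadjusted edgeR p of this term was 0.727, larger than the interval implies, so that the interval may be too narrow.

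In the SYM the TRR5 libraries of lc/fas were at 66.1, 73.7 and 68.3 RPM, all below the wild-type libraries, which was the case for 7.58% of genes. The mean was 77.1% of wild type. In the F&IM lc/fas was at 42.9, 49.1 and 40.4 RPM (85.4% of wild type), and at 2 dpi at 40.3, 47.2 and 34.7 (85.9%), and both overlapped wild type. At 4 dpi it was at 17.1, 20.2 and 17.02 RPM (99.5%), and at 6 dpi at 10.1, 15.2 and 11.4 (79.6%). Mean levels of TRR5 were below wild type at 5 of 5 stages in lc/fas, as for 7.68% of genes, and in lc, as for 5.59%. Within the SYM alone the difference was -0.40 (SE 0.13, adjusted p = 0.427) and did not pass. The fas libraries in the SYM, at 74.2, 78.6 and 81.8 RPM, were also all below wild type (4.18% of genes), and the lc libraries, at 90.7, 88.5 and 83.6 RPM, overlapped it.

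**Figure D4:**
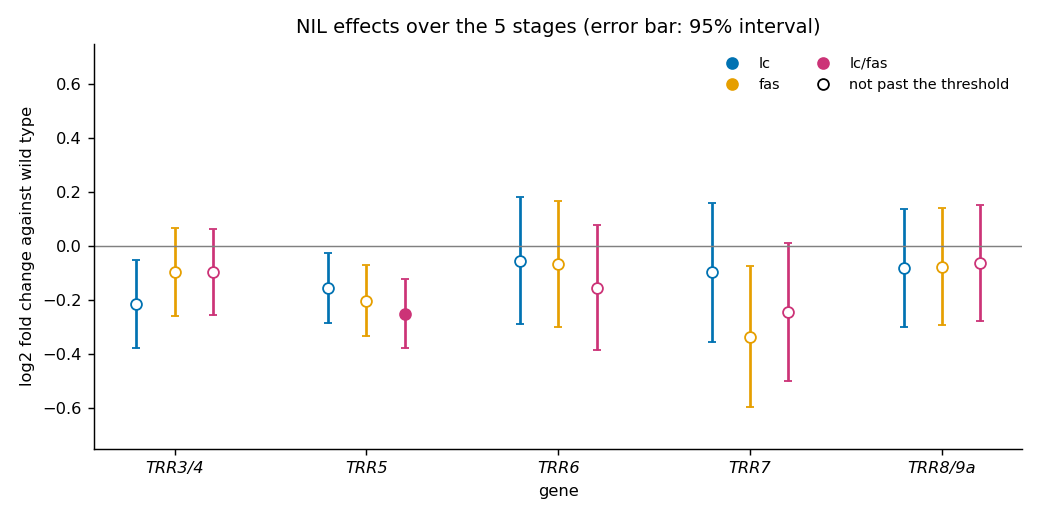
Log2 fold change of each NIL (colour) against wild type over the 5 stages (vertical axis) for each gene (horizontal axis), with 95% intervals; open symbols did not pass the threshold. The filled symbol is TRR5 in lc/fas at -0.25. All comparisons share the wild-type libraries. For TRR6 in lc and fas the unadjusted edgeR p (0.997 and 0.995) is larger than the drawn interval implies.

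The call of TRR5 depended on single collections. For lc/fas over the 5 stages it was lost without wild type replicate 1 (adjusted p = 0.115), wild type replicate 3 (0.156), lc/fas replicate 1 (0.310) or lc/fas replicate 3 (0.129), with differences of -0.25, -0.25, -0.20 and -0.21. It was also lost with limma-voom and the collections as blocks (-0.28, adjusted p = 0.244) and with the counts of a collection summed over the stages (-0.28, adjusted p = 1.00). The overall genotype effect was lost in 6 of 13 runs with libraries left out: without each wild type replicate in turn (adjusted p = 0.250, 0.169 and 0.277), fas replicate 1 (0.105), lc/fas replicate 1 (0.239) and lc/fas replicate 3 (0.149). Other genes moved with the double NIL. Over the 5 stages SlWUS was higher in lc/fas by 0.49 (SE 0.10, edgeR adjusted p = 0.00318) and STM by 0.30 (SE 0.06, adjusted p = 0.00346). SlCLV3 was at -0.22 and did not pass (SE 0.14, adjusted p = 0.652). In the SYM alone SlCLV3 was at -0.96 (SE 0.18, adjusted p = 0.00295), SlWUS at 0.945 (SE 0.19, adjusted p = 0.00781) and STM at 0.55 (SE 0.14, adjusted p = 0.216). The part of these genes in the lower TRR5 level was not tested.

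**Figure D5:**
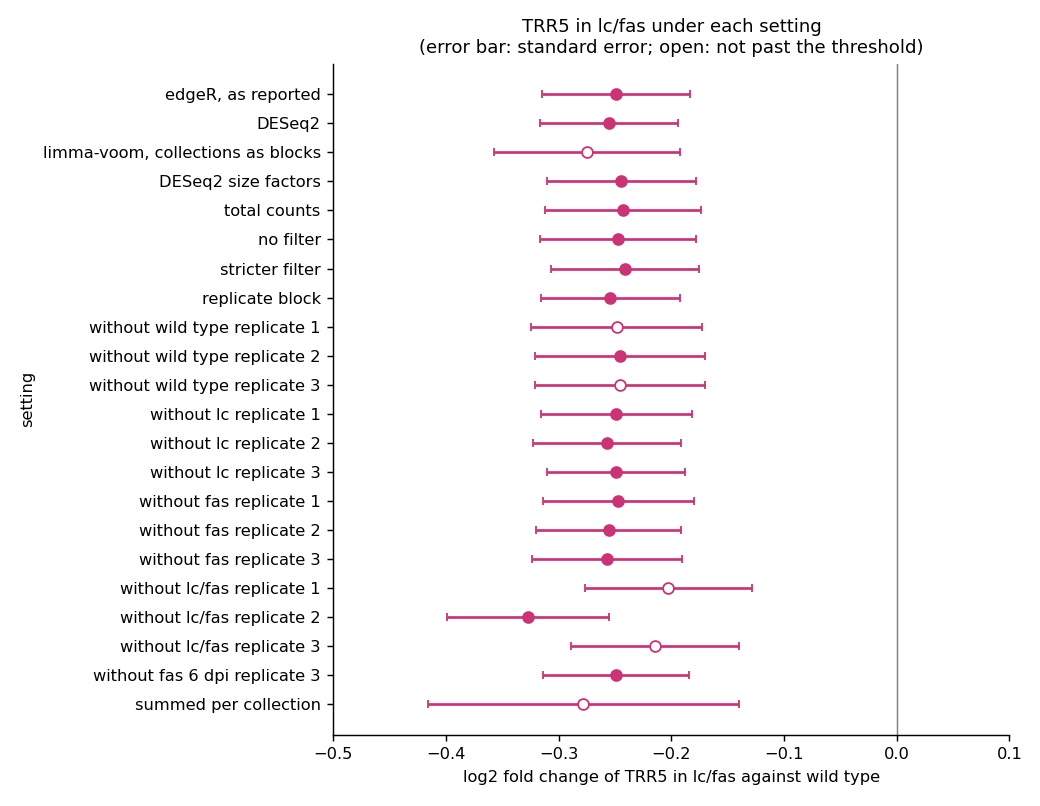
Log2 fold change of TRR5 in lc/fas against wild type over the 5 stages (horizontal axis) with standard errors, as reported and under each alternative (vertical axis). The estimate stays between -0.33 and -0.20, and the open symbols mark the settings in which it did not pass the threshold.

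For the other 4 genes no genotype test passed in edgeR with all libraries. Over the 5 stages TRR7 was at -0.33 in fas (95% interval -0.60 to -0.07, adjusted p = 0.222) and -0.24 in lc/fas (interval -0.50 to 0.01, adjusted p = 0.568), and TRR3/4 at -0.21 in lc (interval -0.37 to -0.05, adjusted p = 0.436). TRR7 in lc/fas ran from -0.45 without lc/fas replicate 3, where it passed (adjusted p = 0.0604), as did its overall genotype effect (adjusted p = 0.0778), to -0.07 without lc/fas replicate 1 (adjusted p = 0.876). TRR6 lay between -0.15 and -0.05 in the 3 NILs and TRR8/9a between -0.08 and -0.06, and leaving out single collections changed the sign of TRR6 in lc and fas and of TRR8/9a in each NIL. Of the 15 tests over the 5 genes, 1 passed, and 5 had an unadjusted p under 0.05.

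Within single stages none of 75 tests of a gene in a NIL passed in edgeR or limma-voom, and 8 had an unadjusted p under 0.05 in edgeR. DESeq2 called none either, but it gave no adjusted p for TRR7 in fas at 6 dpi, so that case was not evaluated there. The share of all genes that passed, in lc, fas and lc/fas in turn, was 0.0159%, 0.0794% and 0.153% in the SYM, 0.0159%, 0.0212% and 0.0423% in the F&IM, and 0.0106%, 0.0265% and 0.0423% at 2 dpi. It was 0.00529%, 0.0106% and 0.0317% at 4 dpi and 0.00529%, 3.01% and 0.0212% at 6 dpi. All 3 NIL libraries were below all 3 of wild type in 12 of the 75 cases and above in 0, against 2.23% to 8.38% of genes below and 1.52% to 9.71% above; the 3 NILs of a stage share the wild-type libraries. TRR7 in the F&IM gave 3 of the 12. Its levels there were 12.2, 11.1 and 9.65 RPM in lc (3.24% of genes were so), all below the 12.4 RPM of the lowest wild-type library. The fas libraries were at 10.8, 9.19 and 8.18 RPM (2.55% of genes) and those of the double NIL at 8.96, 6.29 and 8.50 RPM (6.18%). The largest of these differences, in lc/fas, was -0.73 (SE 0.27, adjusted p = 1.00). The other case of TRR7 was fas at 6 dpi, at 1.81, 2.69 and 2.27 RPM (6.33% of genes), with a difference of -1.02 (SE 0.39, adjusted p = 0.151). Replicate 3 there held 1 count of TRR7. Without this library the difference was -1.02 (adjusted p = 0.155), and it passed only without wild type replicate 2 (-1.09, adjusted p = 0.0457).

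The remaining cases were spread over genes and stages. TRR5 was below wild type in every library of fas at 4 dpi (13.5 to 15.7 RPM, 3.96% of genes), with a difference of -0.36 (SE 0.15, adjusted p = 1.00), and of lc at 6 dpi (10.3 to 12.1 RPM, 3.18% of genes), with -0.45 (SE 0.16, adjusted p = 0.837). TRR3/4 was so in the SYM of lc/fas (31.0 to 32.6 RPM, 7.58% of genes), with -0.41 (SE 0.18, adjusted p = 0.565), and in lc at 2 dpi (20.1 to 22.3 RPM, 4.65% of genes), with -0.25 (SE 0.19, adjusted p = 1.00). TRR6 was so at 2 dpi in fas (2.36 to 2.98 RPM, 3.05% of genes), with -0.65 (SE 0.33, adjusted p = 1.00), and lc/fas (2.68 to 3.36 RPM, 3.97% of genes), with -0.50 (SE 0.31, adjusted p = 1.00). None of the 5 genes passed the genotype by stage interaction (adjusted p = 1.00 for each, smallest unadjusted p = 0.0685 for TRR5; 0.0212% of genes called) or the lc by fas interaction (adjusted p from 0.81 to 0.990; 0.164% of genes called). None had an unadjusted p under 0.05 in either test in edgeR with all libraries, and DESeq2 and limma-voom called none. The unadjusted p of TRR5 for genotype by stage was 0.0163 with limma-voom and, without fas replicate 1, 0.0433 in edgeR, where that of TRR3/4 was 0.0473; each adjusted p was 1.00.

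Of the 17 further cytokinin genes, 2 passed the overall genotype effect, which 3.23% of all genes passed. Because the study chose these 17 on the same libraries, their counts and medians here are not independent evidence of a genotype difference. The AHP1 homolog Solyc01g098400, a phosphotransfer protein gene, was higher by 0.48 in fas (SE 0.09, adjusted p = 0.000860) and by 0.53 in lc/fas (SE 0.09, adjusted p = 0.000214). The ARR11 homolog Solyc05g014260, a type-B regulator, was higher by 0.45 in fas (SE 0.09, adjusted p = 0.00353) and by 0.35 in lc/fas (SE 0.09, adjusted p = 0.0441). In all genes, 0.979% were higher in fas and 0.831% in lc/fas by the same rule. In lc 0 of the 17 passed. The median difference of the type-A genes was -0.10 in lc, and those of the 17 and of all genes were 0.02 and -0.01. In fas the same medians were -0.09, 0.07 and -0.01, and in the double NIL they were -0.15, 0.08 and 0.00.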

How the data were processed

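Reads were trimmed (fqtrim) and aligned (Rsubread) by the authors against the tomato genome with ITAG2.4 annotation. The deposited values are whole counts per gene. No source used here gives the counting settings. A line without a gene name (at most 3.01% of a library) was left out. Genes and lists were chosen with earlier results of these data known; the genes named are the members, stage markers, up to 2 genes per cytokinin class with the smallest p and the 3 closest profiles per member. Counts were analysed in R 4.3.3 with edgeR 4.0.16 (TMM factors, filterByExpr, robust quasi-likelihood tests). Models were of stage plus genotype, their interaction, lc by fas, or the 20 groups. Log2 fold changes are those of edgeR with its default prior count, and SE is the estimate without that prior count over the root of F. For genes with spread below counting error, p can be larger than the SE implies. The submitters' processing notes name DESeq2. Adjusted p-values are Benjamini-Hochberg values over all genes tested, and intervals and floors cover sampling in these libraries and counting error only. Residuals of lc/fas and wild type libraries with equal replicate numbers correlated in all 15 cases (0.173 to 0.822), against 9 of 15 over 0.1 for lc and 13 of 15 for fas. Alternatives were DESeq2 1.42.0, other scalings and filters, the replicate block, limma-voom 3.58.1 with collections as blocks, summed counts and left-out libraries. The procedure was run on simulated counts that were independent between libraries, with planted changes larger than that of TRR5 in lc/fas. That run therefore cannot show how the tests behave when libraries of a collection or replicate number deviate together. No sequence or position was used here.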

Additional observations from a re-analysis of the deposited data

How the results depend on the processing

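The overall stage effect passed for 5 genes under each alternative it was run with, and the steps over the 4 genotypes gave 13 to 16 calls and those in wild type 4 to 9, against 14 and 6. The overall genotype effect went from 1 gene to 0 with limma-voom and collections as blocks, DESeq2 size factors, total counts, no filter, an adjusted p under 0.05 and summed counts, and lay at 0 to 1 with libraries left out. Without lc/fas replicate 3 the 1 gene was TRR7 (adjusted p = 0.0778) and not TRR5 (0.149). The NIL effects over the 5 stages went from 1 call to 0 with the limma-voom blocks and summed counts and to 2 with DESeq2 and with the replicate block, and lay at 0 to 2 with libraries left out. The second call was TRR5 in fas, which also passed without lc replicate 3, and TRR7 in lc/fas passed without lc/fas replicate 3. The effects within a stage gave 0 to 1 calls with libraries left out. Over all 135 fold changes of the 5 genes and their 2944 alternative values, 91 values (42 fold changes) differed in sign, and none of these passed the threshold in either setting. Among the values given here, they were TRR6 in fas, which was 0.025 with the limma-voom blocks and 0.0353 with summed counts and ran from -0.157 to 0.0497 with libraries left out, and, with libraries left out, TRR6 in lc (-0.126 to 0.0597) and TRR8/9a in lc (-0.139 to 0.0236), fas (-0.353 to 0.0512) and lc/fas (-0.146 to 0.006). Summed counts leave 12 samples; for the other alternatives the cause was not tested. Of the 15 closest profiles 14 stayed when the minimum was 20 RPM. Libraries of lc/fas and wild type with 1 replicate number deviated together, and the block for that number gave 8 calls for the steps in wild type and 15 for those over the 4 genotypes and changed no other call on a NIL. Depth limits TRR6 and TRR7 most, above all in fas at 6 dpi, replicate 3.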
